A study of Rattus norvegicus with 12 samples.

Results

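The neurexins, neuroligins and neurexophilins analysed here were 8 genes, 2 neurexins (Nrxn2 and Nrxn3), 3 neuroligins (Nlgn1, Nlgn2 and Nlgn3) and 3 neurexophilins (Nxph1, Nxph3 and Nxph4), of the 17494 genes in the count table. They were chosen by gene symbol, at a time when the difference between the treatments in these same libraries was already known. Their differences between treatments are therefore given as values with standard errors, without a p-value, and no test is read from them.

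The rats were male Long Evans hooded rats of the genotype labelled WT. All of them received 3 low-level blasts at 10 weeks of age. The 6 blast-control rats then ate chow without boldine, an alkaloid of the boldo tree that blocks open connexin hemichannels. The 6 blast-boldine rats ate chow with 500 mg/kg boldine from week 2 after blast until sacrifice at 29 weeks. Each library came from 1 rat. No sham-exposed rat is among these libraries, so both groups carry the blast. The labels give the tissue as brain and the study's methods give it as hippocampus. Total RNA was depleted of ribosomal RNA and sequenced by strand.

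Neurexins are presynaptic cell adhesion molecules that reach across the synaptic cleft. Neuroligins are their classic postsynaptic partners, with Nlgn1 found mainly at excitatory synapses, Nlgn2 at inhibitory synapses and Nlgn3 at both kinds. Neurexophilins are small secreted glycoproteins that bind the extracellular part of alpha-neurexins. In the hippocampus these proteins help to specify and maintain glutamatergic and GABAergic contacts.

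Depth differed widely: 11 libraries held 10148474 to 40850106 counts on genes (median 17720959), and that of blast-control rat 6 held 74008. A single count amounted to 15.8 CPM (counts scaled to the library total with TMM factors) in rat 6 and to no more than 0.102 CPM elsewhere, so the values of rat 6 are printed but carry little precision. The library names end in suffixes from 1 to 6, each used on 2 libraries. Of the 4 ways to form 2 sets that use each suffix 1 time and in which rat numbers rise with the suffix, the sets of rats 1, 7, 9, 20, 32 and 35 (set A) and of rats 4, 5, 6, 12, 17 and 19 (set B) accounted for 95.05% of the first principal component, and treatment for 1.535% of it. That component held 66.04% of the variance. Each set holds 3 rats of each treatment. The sets were found from the names and the values together, what they stand for is not given in the sources used here, and differences between them are described without a test. Markers of dentate gyrus, CA1 and CA3 were present in all 11 deeper libraries, except that Tdo2 of the dentate list and Iyd of the CA3 list were at 0 in some of them.

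The 8 genes lie on 7 chromosomes of the rat build mRatBN7.2. Nrxn2 is on the plus strand of chromosome 1 from 203735753 to 203842299, and Nrxn3 on the plus strand of chromosome 6 from 107641984 to 109271234, each with 22 separate stretches of exon. Nlgn1 is on the minus strand of chromosome 2 from 108257824 to 109001931, Nlgn2 on the minus strand of chromosome 10 from 54544590 to 54557851, and Nlgn3 on the plus strand of chromosome X from 66429476 to 66451876. Nxph1 is on the plus strand of chromosome 4 from 36998068 to 37311135, Nxph3 on the minus strand of chromosome 10 from 80456283 to 80459949, and Nxph4 on the minus strand of chromosome 7 from 63367758 to 63376579. None of their exon bases overlapped an exon of another listed gene. The exon length behind the counts ran from 1082 bases in Nxph3 to 6409 bases in Nrxn2. Counts were summed over each gene, so alpha and beta neurexin transcripts and splice forms are not separated.

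Promoter windows of 300 bases, from 250 bases before to 50 after the start of the gene, were at hand in RefSeq on the build GRCr8 for Nlgn1, Nlgn2, Nlgn3 and Nxph1. Their GC content was 43.3%, 67.3%, 61.7% and 56.0%, against a median of 51.7% over 33469 rat promoters. The windows of Nlgn1 (chr2:110930627-110930926, minus strand) and Nlgn2 (chr10:55056529-55056828, minus strand) are printed because these neuroligins were neighbours in level per length and stood farthest apart in promoter composition. Capitals mark the GC box GGGCGG on either strand, with overlapping matches counted.
Nlgn1: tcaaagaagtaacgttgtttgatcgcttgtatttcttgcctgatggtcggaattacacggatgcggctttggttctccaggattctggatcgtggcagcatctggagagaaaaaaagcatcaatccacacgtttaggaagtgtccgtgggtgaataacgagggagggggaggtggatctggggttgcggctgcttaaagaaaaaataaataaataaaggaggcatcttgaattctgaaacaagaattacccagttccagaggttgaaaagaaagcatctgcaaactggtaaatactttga
Nlgn2: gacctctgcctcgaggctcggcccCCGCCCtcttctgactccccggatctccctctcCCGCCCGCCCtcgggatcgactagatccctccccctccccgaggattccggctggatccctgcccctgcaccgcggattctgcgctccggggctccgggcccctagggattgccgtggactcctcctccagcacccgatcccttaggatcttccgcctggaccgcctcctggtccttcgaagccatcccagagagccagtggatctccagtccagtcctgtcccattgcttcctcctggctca
The window of Nlgn2 held 3 GC boxes and 20 CpG dinucleotides, and that of Nlgn1 held 0 GC boxes and 10 CpG dinucleotides. The windows of Nlgn3 and Nxph1 also held 0 GC boxes, with 16 and 19 CpG dinucleotides. Of all 33469 promoters of this length, 33.1% held a GC box. Searched on both strands in the same way, the CRE half-site TGACG (in 21.2% of promoters) and the TATA box TATAAA (in 14.2%) were found in none of the 4 windows.

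The levels of the 8 genes were compared per kb of exon in 11 libraries, leaving out rat 6. The mean levels of the neurexins and neuroligins lay between 34.7 and 50.5 CPM per kb. The means of the neurexophilins Nxph1 and Nxph3 were lower, and Nxph4 was barely expressed. Single libraries crossed this order, with Nxph3 at 26.8 and 27.2 CPM per kb in control rats 1 and 7, where Nrxn2 measured 26.7 and 23.6. Nrxn3 measured 50.5 ± 4.46 CPM per kb (SD, n = 11), Nlgn3 48.2 ± 9.42, Nlgn1 41.3 ± 5.04, Nlgn2 37.7 ± 10 and Nrxn2 34.7 ± 14.2. Nxph1 measured 16.2 ± 6.71 CPM per kb (SD, n = 11), Nxph3 14.9 ± 7.6 and Nxph4 0.43 ± 0.249. The 7 pairs of neighbours in this order, which was set on the same libraries, were compared within libraries by an exact two-sided sign-flip permutation test of the log2 difference, with Benjamini-Hochberg adjustment over the 7 pairs.

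Of the 7 steps, 2 passed the adjusted threshold of 0.05. Nxph3 was 35.4-fold higher than Nxph4 in the mean log2 level per kb, in 11 of 11 libraries (exact permutation p = 0.000977, the smallest these libraries allow, adjusted p = 0.00684). Nrxn2 was 2.18-fold higher than Nxph1, in 9 of 11 libraries (exact permutation p = 0.00684, adjusted p = 0.0239). That step differed between the library sets: Nrxn2 and Nxph1 measured 24.1 ± 2.71 and 21.8 ± 2.53 CPM per kb in the 6 libraries of set A, and 47.4 ± 11 and 9.49 ± 1.32 in the 5 of set B. The step from Nlgn3 to Nlgn1 had an adjusted p of 0.0547 (exact permutation test, ratio 1.16, higher in 9 of 11 libraries). It passed when control rat 5 or boldine rat 17 was left out (adjusted p = 0.0365 and 0.0319). The step from Nlgn1 to Nlgn2 had an adjusted p of 0.336 (exact permutation test, ratio 1.11, Nlgn1 higher in 10 of 11 libraries). That step passed when control rat 4 was left out (adjusted p = 0.00684, exact permutation test). The neighbours Nrxn3 and Nlgn3, Nlgn2 and Nrxn2, and Nxph1 and Nxph3 did not differ beyond their spread over the 11 libraries (adjusted p = 0.336, 0.336 and 0.458, exact permutation test). Nlgn2 and Nrxn2 stood in opposite order in the library sets: Nlgn2 was higher in all 6 libraries of set A (35.4 ± 2.6 against 24.1 ± 2.71 CPM per kb) and lower in all 5 of set B (40.5 ± 15 against 47.4 ± 11), narrowly so in rat 4.

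**Figure D1:**
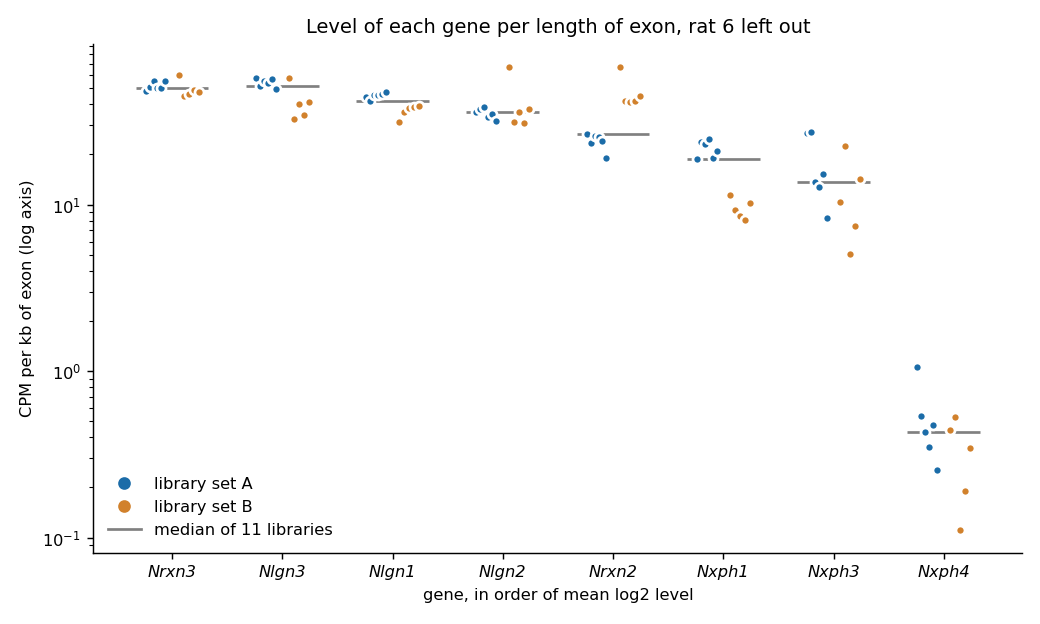
CPM per kb of exon on a log axis for each of the 8 genes, with 1 point per library in 11 libraries (rat 6 left out), coloured by library set; grey lines are medians. The points of the neurexins and neuroligins lie between 19.04 and 66.9 CPM per kb, some points of Nxph1 and Nxph3 reach into that range, and the points of Nxph4 lie between 0.112 and 1.06.

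In the whole table, no gene of the 12325 tested passed an adjusted p of 0.05 between the treatments, so that 0% was called (smallest adjusted p 1.0, Benjamini-Hochberg, quasi-likelihood test of edgeR). At an unadjusted p under 0.05 there were 132 genes in edgeR, or 1.07%, of which the lower ones made up 0.519% of all genes tested, and 85 genes in DESeq2, which also called 0 after adjustment. The share at an unadjusted p under 0.05 was 1.4% without rat 6, 3.85% with the library set as a covariate and 5.35% with both changes, and no gene passed the adjusted threshold in any of these fits. The log2 fold change, boldine over control, was negative in 6 of the 8 genes, beside 48.7% of all genes tested. The median over the 8 genes was -0.18, and over all genes tested it was 0.0046. Since the genes were selected on this contrast, nothing is read from these counts. As these are bulk samples, fewer cells of a type and less RNA per cell cannot be told apart in any of the values that follow.

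**Figure D2:**
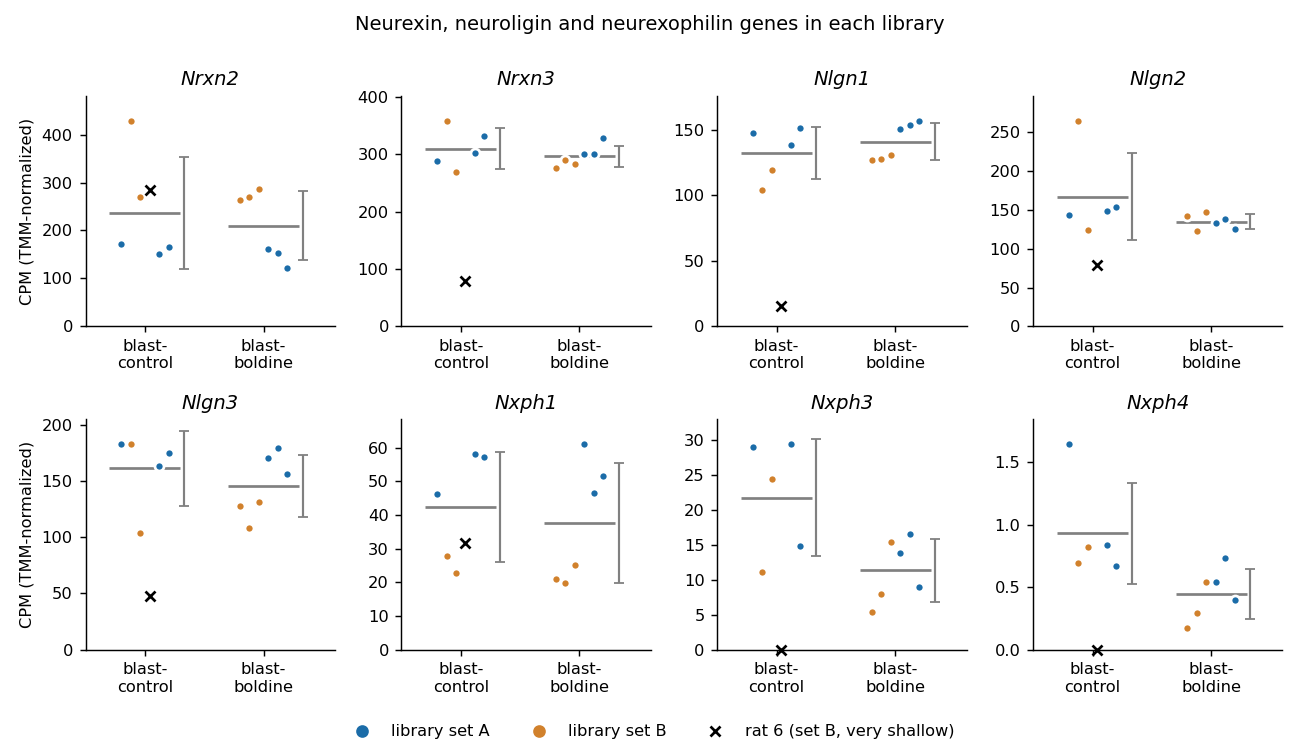
CPM of the 8 genes in each of the 12 libraries, by treatment, with linear axes from 0; points are rats coloured by library set, crosses are the very shallow rat 6, and grey lines with bars are the mean and SD without rat 6. All 6 blast-boldine rats lie below the blast-control mean for Nlgn2 (167 CPM), Nxph3 (21.8 CPM) and Nxph4 (0.932 CPM). For Nlgn2 all blast-control rats but rat 4 (265 CPM) also lie below that mean, and for Nxph4 all but rat 1 (1.65 CPM). Nrxn2, Nlgn1 and Nxph1 split by library set within each treatment.

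Nrxn2, a neurexin whose level followed the library set, had 40051 counts in all. It measured 171, 429, 269, 285, 151 and 165 CPM in blast-control rats 1, 4, 5, 6, 7 and 9. In blast-boldine rats 12, 17, 19, 20, 32 and 35 it measured 264, 270.1, 287, 162, 154 and 122 CPM. The treatments overlapped, and the high values in both were those of set B. Set A ran from 122 to 171 CPM and set B without rat 6 from 264 to 429 CPM, with no overlap. Within set A the means were 146 CPM with boldine and 162 CPM without, and within set B without rat 6 they were 274 and 349 CPM. Between treatments the log2 fold change was -0.21 (SE 0.30). Without rat 4, whose 429 CPM was the highest value, it was 0.064 (SE 0.27) in the same fit, which has no term for the library set, and without rat 6 it was -0.17 (SE 0.32). In that fit it was -0.071, -0.11 and -0.12 without boldine rats 35, 32 and 20, and -0.32 without control rat 7. With the library set as a covariate it was -0.23 (SE 0.11), and -0.24 (SE 0.11) when rat 6 was also left out. Within set A, which does not hold rat 4, the difference in mean log2 CPM was -0.162.

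Nrxn3, the neurexin with the steadiest level, had 60424 counts, the most of the 8 genes. Blast-control rats measured 288, 359, 269, 79.2, 303 and 332 CPM, where 79.2 is rat 6 with 5 counts. Blast-boldine rats measured 277, 291, 284, 301, 301 and 329 CPM. Apart from rat 6 the treatments and the library sets overlapped, and the coefficient of variation over 11 libraries was 8.84%, beside a median of 23.3% over the genes tested. The log2 fold change of 0.069 (SE 0.22) turned to -0.064 (SE 0.094) without rat 6. It was 0.15 without control rat 4, 0.12 without control rat 9 and 0.045 without boldine rat 35. With the library set as a covariate it was 0.0018 (SE 0.14), and -0.060 (SE 0.078) when rat 6 was also left out. Nrxn2 made up 31.8 ± 3.32% of the summed CPM per kb of the pair Nrxn2 and Nrxn3 in set A (SD, n = 6) and 48.7 ± 2.47% in set B without rat 6 (SD, n = 5). Between treatments that share was 39.0 ± 9.65% in blast-boldine rats (n = 6) and 40.1 ± 9.82% in blast-controls without rat 6 (n = 5).

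Nlgn1, the neuroligin of excitatory synapses, measured 148, 104, 119, 15.8, 139 and 151 CPM in blast-control rats, with a single count in rat 6. Blast-boldine rats measured 127, 128, 130.5, 150.5, 154 and 157 CPM. The treatments overlapped, with 2 blast-boldine rats above every blast-control rat. The sets did not overlap, at 139 to 157 CPM in set A and 104 to 131 CPM in set B without rat 6. Within the sets, leaving out rat 6, the difference in mean log2 CPM was 0.0765 in set A and 0.203 in set B. Its log2 fold change, boldine over control, was 0.19 (SE 0.22), and 0.089 (SE 0.12) without rat 6, so that leaving out rat 6 moved it by more than 1.5 times. With the library set as a covariate it was 0.16 (SE 0.10), and 0.13 (SE 0.059) when rat 6 was also left out.

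Nlgn2, the neuroligin of inhibitory synapses, measured 143, 265, 124, 79.2, 149 and 153 CPM in blast-control rats. In blast-boldine rats it measured 143, 122, 148, 133, 138 and 125 CPM, with an SD of 9.9 (n = 6). Each of the 6 blast-boldine rats lay below the blast-control median of 149 CPM without rat 6, and 1 lay below every blast-control rat other than rat 6. Control rat 4, with 265 CPM, stood apart from all others. Nlgn2 had a log2 fold change of -0.24 (SE 0.20) with all libraries and -0.013 (SE 0.14) without rat 4 in the same fit. With the library set as a covariate it was -0.29 (SE 0.15), and -0.32 (SE 0.15) when rat 6 was also left out; both fits hold rat 4. Within set A, which does not hold rat 4, the difference in mean log2 CPM was -0.167, and the 3 blast-boldine rats lay below the 3 blast-control rats. Within set B without rat 6 it was -0.403, where rat 4 was above all 3 blast-boldine rats and the other blast-control, rat 5, lay below 2 of them. Without rat 6 and with no covariate the log2 fold change was -0.31 (SE 0.17).

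Nlgn3, the X-linked neuroligin found at both kinds of synapse, measured 183, 183, 104, 47.5, 163 and 175 CPM in blast-control rats. In blast-boldine rats it measured 128, 109, 131, 171, 179 and 156 CPM. The treatments overlapped over most of their range. The 6 values of set A ran from 156 to 183 CPM, and 4 of the 5 deeper libraries of set B lay below them, the exception being rat 4. For Nlgn3 the log2 fold change was -0.059 (SE 0.22), and -0.15 (SE 0.17) without rat 6. With each library left out in turn it ran from -0.15 to 0.020, positive without control rat 1, control rat 4 or boldine rat 17 (0.020, 0.0071 and 0.0089) and at -0.15 without control rat 5 as well. With the library set as a covariate it was -0.098 (SE 0.13), and -0.13 (SE 0.12) when rat 6 was also left out. Within set A and within set B without rat 6 the differences in mean log2 CPM were -0.0426 and -0.172. Among the 3 neuroligins, Nlgn1 made up 34.7 ± 1.79% of the summed CPM per kb in blast-boldine rats (n = 6) and 30.6 ± 6.04% in blast-controls without rat 6 (n = 5). The same shares were 28.0 ± 3.27% and 31.4 ± 6.7% for Nlgn2, and 37.3 ± 3.26% and 38.1 ± 3.44% for Nlgn3. Each of these differences was smaller than the larger SD of its pair, and none was tested. For Nlgn1 and Nlgn2 the larger SD was that of the blast-controls. Their shares reached as low as 20.1% for Nlgn1 and as high as 42.8% for Nlgn2.

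Nxph1, a neurexophilin whose level followed the library set, measured 46.3, 27.8, 22.7, 31.7, 58.1 and 57.1 CPM in blast-control rats. Blast-boldine rats measured 20.9, 19.8, 25.2, 61.0, 46.7 and 51.7 CPM. The treatments overlapped, and the values fell by library set: set A held 46.3 to 61.0 CPM and set B without rat 6 held 19.8 to 27.8 CPM. Of the 8 genes, Nrxn2, Nlgn1 and Nxph1, or 3, had sets that did not overlap, beside 49.1% of all genes tested. The log2 fold change of Nxph1 between treatments was -0.16 (SE 0.34), and with the library set as a covariate it was -0.097 (SE 0.11). It was -0.18 (SE 0.36) without rat 6, and with each library left out in turn it ran from -0.35, without boldine rat 20, to -0.023, without control rat 7. It was -0.037 without boldine rat 12 or 17, -0.064 without boldine rat 19, -0.038 without control rat 9, -0.30 without control rat 5 and -0.27 without control rat 4 or boldine rat 35. Within set A the means were 53.1 CPM with boldine and 53.8 CPM without, and within set B without rat 6 they were 22.0 and 25.3 CPM.

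Nxph3, a neurexophilin known from scattered neuron types, among them those of cortical layer 6b, had 3636 counts. It measured 29.02, 11.2, 24.5, 0, 29.4 and 14.8 CPM in blast-control rats, where 0 is rat 6, in which 3 counts would be 47.5 CPM. Blast-boldine rats measured 5.43, 8.03, 15.5, 13.8, 16.5 and 8.96 CPM. All 6 blast-boldine rats lay below the blast-control median of 24.5 CPM without rat 6, and 3 lay below every blast-control rat other than rat 6. The groups overlapped between 11.2 and 16.5 CPM, because control rats 4 and 9 were low. The means were 11.4 ± 4.51 CPM (SD, n = 6) and 21.8 ± 8.36 CPM (SD, n = 5, without rat 6). The log2 fold change was -0.90 (SE 0.34), between -1.06 and -0.76 with each library left out in turn, and -0.95 (SE 0.33) without rat 6. Within set A the mean log2 CPM with boldine was lower by a difference of -0.872, and within set B without rat 6 by one of -0.904.

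Nxph4, a neurexophilin of restricted expression that is also known from layer 6b, had 163 counts in the whole table. The counts were 75, 7, 8, 0, 16 and 8 in blast-control rats and 3, 3, 7, 12, 16 and 8 in blast-boldine rats. In CPM these were 1.65, 0.691, 0.819, 0, 0.838 and 0.667 in blast-control rats, and 0.173, 0.298, 0.539, 0.541, 0.735 and 0.398 in blast-boldine rats. Apart from rat 6, 5 of the 6 blast-boldine rats lay below every blast-control rat, and rat 32 lay among them. Most of these values rest on few counts: the exact Poisson 95% interval was 0.0358 to 0.507 CPM in boldine rat 12 and 0.354 to 1.61 CPM in control rat 5, covering counting error only. The means were 0.447 ± 0.20 CPM (SD, n = 6) and 0.932 ± 0.406 CPM (SD, n = 5, without rat 6), and control rat 1, at 1.65 CPM and with 75 of the 163 counts, stood above all others. The log2 fold change was -1.09 (SE 0.35), the same to 2 decimals without rat 6 (SE 0.37). The differences in mean log2 CPM were -0.729 within set A and -1.02 within set B without rat 6. The filter on low counts asked for 0.642 CPM in 6 libraries, which 5 blast-control and 1 blast-boldine library met, so Nxph4 passed it mostly through the group where it was higher. It fell below that filter when control rat 1 or 7, or boldine rat 12, 20, 32 or 35, was left out. With no filter, an alternative chosen after seeing the data, each library left out in turn gave values between -1.29 and -0.71, and the value nearest 0 was that without control rat 1 (-0.71, SE 0.36).

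**Figure D3:**
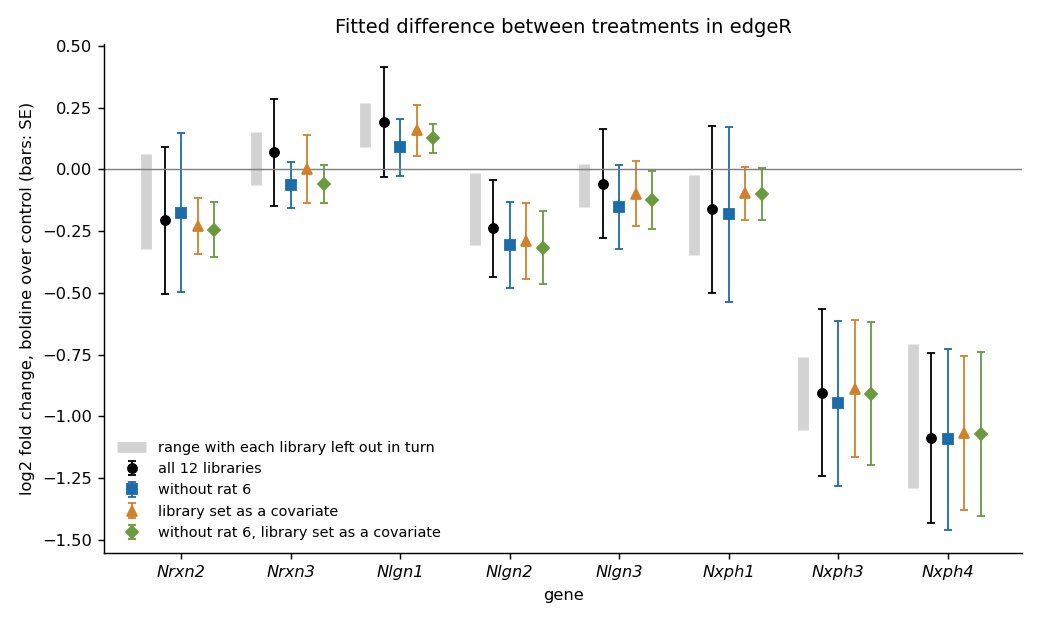
Fitted log2 fold change, boldine over control, with its SE for the 8 genes under 4 fits, and in grey the range when each library is left out in turn (for Nxph4 with no filter on low counts). With each library left out in turn, Nxph3 lies between -1.06 and -0.76 and Nxph4 between -1.29 and -0.71, and the ranges of Nrxn2, Nrxn3 and Nlgn3 include 0.

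Markers of deep cortical neurons are given beside Nxph3 and Nxph4, since both are known from layer 6b. Of 7 measured markers of cortical layers 6 and 6b, on a list chosen with earlier results of these data known, 6 had a negative log2 fold change, beside 48.7% of all genes tested, and 3 were lower at an unadjusted p under 0.05 in edgeR, beside 0.519%. Those 3 were Cplx3, a complexin (log2 fold change -1.06, SE 0.36), Ccn2, a matricellular protein of layer 6b (-0.65, SE 0.18), and Rprm, a layer 6 marker (-0.69, SE 0.31), each with an adjusted p of 1.0 in edgeR. The most abundant marker of the list, Tle4, averaged 120.0 CPM with boldine (SD 5.39, n = 6) and 125 CPM without it (SD 11.9, n = 5, rat 6 left out), with a log2 fold change of 0.0092 (SE 0.15). The summed level of the list was 194 to 216 CPM in blast-boldine rats, with a median of 201, and 203 to 259 CPM in blast-control rats without rat 6, with a median of 247. No marker of the list was at 0 in the 11 libraries. The list was chosen with earlier results known, so nothing is read from its counts beside the shares of all genes. The part of these markers in the values of Nxph3 and Nxph4 was not tested. Lists for pan-neuronal, excitatory, GABAergic, astrocyte, oligodendrocyte, microglial, endothelial, choroid plexus, dentate gyrus, CA1, CA3, upper cortical layer and thalamic cells held no marker with an unadjusted p under 0.05, and the subiculum list held 1, Slc17a6 (log2 fold change -0.64, SE 0.27, adjusted p = 1.0 in edgeR). The sums of several of these lists are given for blast-boldine rats against blast-controls without rat 6, and their ranges overlapped. All 3 CA1 markers had a negative log2 fold change, and their sum was 483 to 630 CPM (median 611) against 585 to 860 CPM (median 698). All 4 microglial markers had one as well, with a sum of 103 to 257 CPM (median 174) against 93.2 to 263 CPM (median 244). All 4 choroid plexus markers had a positive one, with a sum of 8.23 to 1170 CPM (median 434) against 12.8 to 1130 CPM (median 15). All 3 endothelial markers also had a positive one, with a sum of 58 to 227 CPM (median 135) against 61.2 to 222 CPM (median 76.5). The GABAergic sum was 419 to 576 CPM (median 442) against 404 to 573 CPM (median 420.0).

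The partners of neurexins and neuroligins were taken from a list of 36 genes, of which 35 had a row and all 35 passed the filter. Of these, 1 had an unadjusted p under 0.05, on the lower side, 0 on the higher side, and 20 of the 35 had a negative log2 fold change, with a median of -0.0087. That share of 1 in 35 stands beside the 1.07% of all genes. The smallest adjusted p in the list was 1.0 in edgeR with all libraries, and 0.889 to 1.0 over the other fits.

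The partner at an unadjusted p under 0.05 was Igsf21, a postsynaptic ligand of neurexin 2 alpha at inhibitory synapses. It measured 28.2, 19.6, 12.3, 0, 22.4 and 22.0 CPM in blast-control rats, with 0 counts in rat 6. In blast-boldine rats it measured 10.5, 10.4, 11.8, 18.6, 14.8 and 15.5 CPM. All 6 blast-boldine rats lay below the blast-control median of 22.0 CPM without rat 6, and 3 lay below every blast-control rat other than rat 6. Its log2 fold change was -0.59 (SE 0.24, unadjusted p = 0.0326, adjusted p = 1.0 in edgeR). Without rat 6 and with the library set as a covariate it was -0.57 (SE 0.12, unadjusted p = 0.000586, adjusted p = 0.889 in edgeR). With no covariate, its unadjusted p in edgeR rose above 0.05 without control rat 1, 7 or 9 or boldine rat 12, 17 or 19. It reached 0.114 without control rat 1.

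The secreted organizers that bind neurexins, the cerebellins and C1q-like proteins, had log2 fold changes between -0.68 and 0.086 in 5 genes, 3 of them negative. The lowest was Cbln4, at 25.7, 4.0, 3.1, 0, 14.98 and 8.3 CPM in blast-control rats and 3.3, 2.5, 8.3, 7.8, 14.0 and 6.0 CPM in blast-boldine rats (log2 fold change -0.68, SE 0.53, adjusted p = 1.0 in edgeR). Control rat 1, at 25.7 CPM, stood above all other rats for Cbln4. The means were 6.98 CPM with boldine (SD 4.16) and 11.2 CPM in blast-controls without rat 6 (SD 9.35). Within the library sets, leaving out rat 6, the difference in mean log2 CPM of Cbln4 was -0.757 in set A and 0.208 in set B. C1ql3 and C1ql2, the most abundant of the group, differed by 0.0043 (SE 0.23) and 0.086 (SE 0.28) on the log2 scale.

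Of the 8 postsynaptic neurexin ligands, 5 had negative values, and the most abundant were the calsyntenins Clstn1 (1150 CPM over 11 libraries, log2 fold change -0.25, SE 0.16, in 12 libraries and -0.13, SE 0.11, without rat 6) and Clstn3 (351 CPM, -0.12, SE 0.14). Among 3 latrophilins, adhesion receptors that bind teneurins and FLRT proteins, Adgrl1 had a log2 fold change of -0.16 (SE 0.14) and Adgrl3 one of 0.073 (SE 0.17). Grid1, a delta receptor bridged to neurexins by cerebellins, had -0.15 (SE 0.15). Mdga1 and Mdga2, which block the binding of neuroligins to neurexins, had 0.11 (SE 0.44) and 0.12 (SE 0.27). The presynaptic scaffolds Sdcbp and Apba1 had 0.024 (SE 0.28) and 0.085 (SE 0.26), and the 6 genes of that role lay between -0.0087 and 0.14.

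Of the 9 postsynaptic scaffolds of neuroligins, 7 had negative values, and all lay between -0.32 and 0.11. Dlg4, the PSD-95 scaffold, had a log2 fold change of -0.32 (SE 0.22), and Shank1 one of -0.092 (SE 0.55). The mean of Dlg4 was 638 CPM in blast-boldine rats, 810 CPM in blast-controls and 715 CPM in blast-controls without rat 6. Its differences in mean log2 CPM were -0.0974 within set A and -0.279 within set B without rat 6. Shank1 ran from 256 to 402 CPM in set A and from 1004 to 1972 CPM in set B without rat 6. Shank3 and Shank1 reached an unadjusted p of 0.00821 and 0.0261 in edgeR in the fit without rat 6 and with the library set (log2 fold changes -0.29 and -0.36, adjusted p = 0.898 for both, 0.898 to 1.0 over all fits). Without control rat 4 and with no covariate, both had positive values, 0.16 for Shank3 and 0.48 for Shank1. Adam10, a protease that sheds neurexins and neuroligins, had 0.0047 (SE 0.12).

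**Figure D4:**
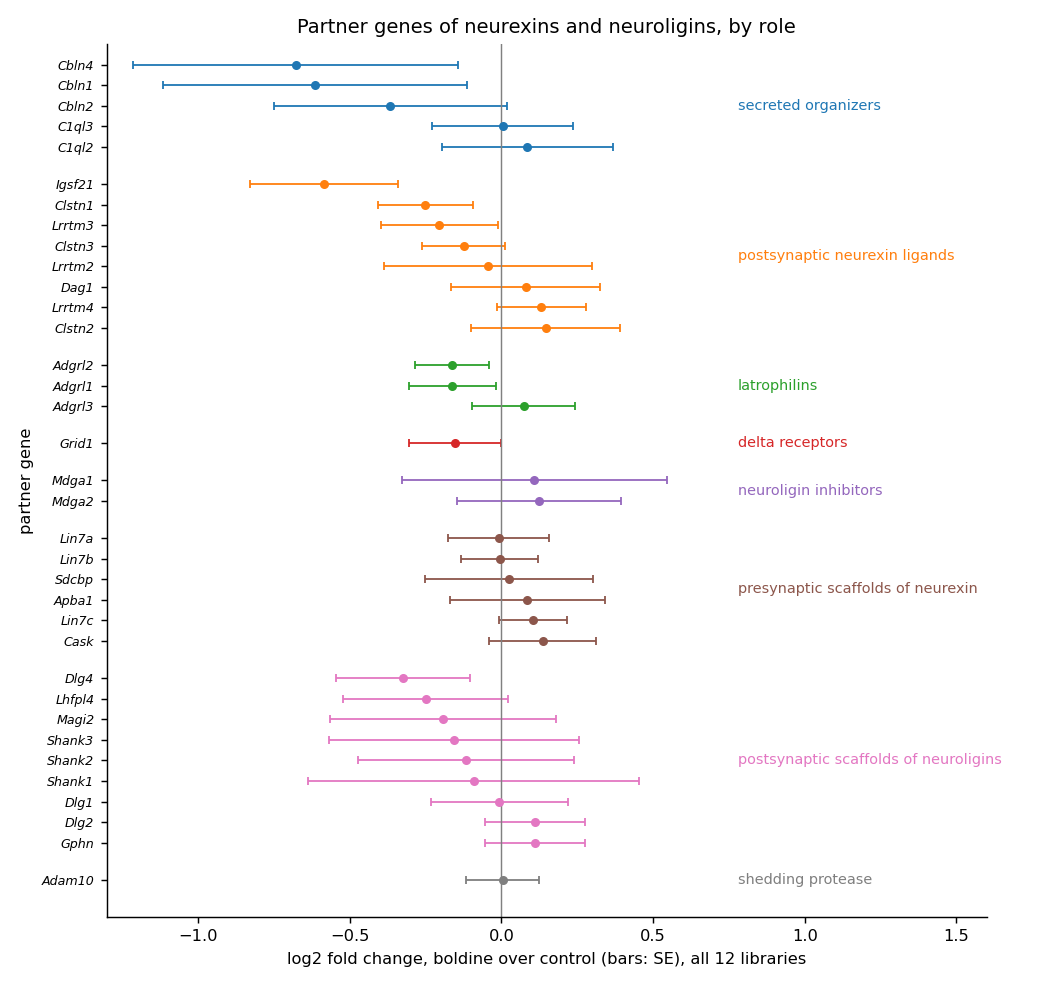
Log2 fold change, boldine over control, with its SE for the 35 partner genes in all 12 libraries, grouped by role. The values lie between -0.68 (Cbln4) and 0.15 (Clstn2), and Igsf21 at -0.59 is the gene with an unadjusted p under 0.05.

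The genes whose levels most resembled each of the 8 were sought among 10453 genes with a mean of at least 5 CPM, by Pearson's r of log2 CPM over 11 libraries after the mean of each library set was removed. These values describe 11 shared libraries and are the highest of many, so they carry no test. For the neurexins they were Cyp46a1 (r = 0.977) and Cdk5r2 (0.963) for Nrxn2, and Cacng8 (0.977) and Adgrb2 (0.973) for Nrxn3. For the neuroligins they were Tmem165 (0.972) and Cdc27 (0.968) for Nlgn1, Rnf208 (0.991) and Dlgap3 (0.987) for Nlgn2, and Rhog (0.986) and Slc25a10 (0.985) for Nlgn3. For the neurexophilins they were Bmyc (0.937) and Cck (0.92) for Nxph1, Kcnt1 (0.965) and Camta1 (0.956) for Nxph3, and Aars2 (0.973) and Ptpn5 (0.927) for Nxph4. The profile of Nxph4 rests on the few counts given above.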

How the data were processed

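Hippocampal RNA from 12 blast-exposed rats was sequenced. The authors removed duplicate reads and trimmed with HTStream, aligned to mRatBN7.2 with STAR 2.7.11b and counted reads on exons by strand with featureCounts (Subread 2.0.1), as the methods and the submitters' processing notes state. The deposited values are these raw counts per gene symbol, with exon coordinates and lengths. Of 17494 genes, 1804 had no count in any library.

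From the counts, edgeR 4.0.16 (R 4.3.3) gave TMM-normalized CPM and a two-sided quasi-likelihood test of treatment over all 12 libraries, on 12325 genes kept by its filter (minimum count 10), with Benjamini-Hochberg adjustment; the script was tested on simulated data. edgeR was used in place of the DESeq2 test of the study, and DESeq2 1.42.0 and limma-voom (limma 3.58.1) served as alternatives. The SE of a log2 fold change in edgeR was its absolute value divided by the square root of the F statistic of that test. It is therefore an approximate SE derived from the test. Log2 CPM used a prior count of 2. CPM per kb was CPM divided by exon length in kb. The members, partner lists and marker lists were chosen with earlier results of these data known. Named were the 8 members, partners at an unadjusted p under 0.05 with the 2 most abundant of each role, the 2 genes nearest each member in profile, and markers; Cbln4 and Shank3 were named after their values were seen, as were the ranges of Shank1. The methods name the animal as the experimental unit. 3 genes are not reported here, and are left out of the partner counts.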

Additional observations from a re-analysis of the deposited data

Results flagged for a closer look

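In a group of 6 libraries, a value was marked when its gap to the nearest other, as a share of the whole range, exceeded the 95% critical value of Dixon's test, which chance does in about 1 in 20 groups. Of 46 groups examined, 4 were marked. Blast-control rat 6 was the lowest for Nrxn3, at 79.2 CPM against 269 to 359 in the other blast-control rats, and for Nlgn1, at 15.8 CPM against 104 to 151. The same rat was the highest for Adam10, at 206 CPM against 124 to 139. In rat 6 the library held 74008 counts, and 1 count was worth 15.8 CPM. Blast-control rat 4 was the highest for Adgrl1, at 759 CPM against 432 to 523. Rat 4 was also the highest of the 12 rats for Nrxn2 and Nlgn2, at 429 and 265 CPM, which were not marked in this way. For Nlgn2 the range was widened by rat 6, at 79.2 CPM from 5 counts.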

How the results depend on the processing

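No gene passed an adjusted p of 0.05 under any alternative, and the smallest adjusted p was 0.791, with the library set as a covariate. The number of genes at an unadjusted p under 0.05, 132 in the fit of all libraries, was 254 with no filter on low counts, 85 in DESeq2, 474 with the library set as a covariate and 670 without rat 6 and with the library set. With each library left out in turn it ran from 85 to 214: 85 without boldine rat 12 or 17, 87 without control rat 1 and 214 without control rat 5. Among the partner genes that number, 1 in the fit of all libraries, was 2 with the library set, 3 without rat 6 and with the library set, and from 0 to 1 with each library left out. It was 0 without control rats 7 or 9 or boldine rats 12, 17 or 19, and without control rat 1 the gene was Clstn1 in place of Igsf21. The count of members with a negative log2 fold change, 6 of 8, ran from 4 to 7 with each library left out. Only 7 members were tested where Nxph4 fell below the filter, as it did without control rat 1. The count was 4 of 7 without control rat 1, 4 of 8 without control rat 4 and 7 of 8 without rat 6. The shares of all genes tested in those fits were 44.8%, 48.9% and 50.3%. Another normalization moved the median log2 fold change of all genes from 0.0046 to -0.011 (RLE) and -0.016 (upper quartile), and the share of negative values from 48.7% to 53.2% and 54.9%. For Nxph4 the log2 fold change was -1.15 (SE 0.59) in DESeq2 and -1.39 (SE 0.49) in limma-voom. For Nxph3 it was -0.90 (SE 0.39) in DESeq2 and -0.95 (SE 0.34) in limma-voom.

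The differences in level of Nrxn2 over Nxph1 and Nxph3 over Nxph4, 1.13 and 5.15 on the log2 scale, were 1.17 and 5.23 in the 6 blast-boldine rats alone and 1.08 and 5.05 in 5 blast-controls. Their adjusted p there was 0.219 and 0.109, and 0.292 for both (exact permutation test). For Nxph3 over Nxph4 all libraries of each treatment had the same direction, so its p before adjustment was the smallest that such numbers of libraries allow. With all 12 libraries and a prior count, Nlgn3 over Nlgn1 passed (adjusted p = 0.0262, exact permutation test). Coding length in place of exon length was not run, since no protein table was used. No paired analysis was possible because the treatment groups share no rat number. Depth limits Nxph4, with fewer than 10 counts in 8 of 12 libraries, and every value of rat 6.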
